A study of Mus musculus with 2 samples.

Results

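Skin endothelial cells were taken as the barcodes in which at least 3 of the 7 genes Pecam1, Cdh5, Emcn, Ptprb, Flt1, Kdr and Cldn5 had a unique molecular identifier (UMI, the tag that counts each captured mRNA once). Among the 62289 barcodes with 200 to 8000 genes and at most 10% of UMIs from mitochondrial genes, 235 met this rule, 91 of 42244 in the vehicle control (Con) and 144 of 20045 in the testosterone propionate group (TP). Each library was made from dorsal skin pooled over 15 male C3H/HeN mice, aged 7 weeks when the experiment began and 9 weeks when the skin was taken. The TP mice, a model of androgenetic alopecia (AGA), received 0.5 mg of testosterone propionate per day under the skin, and the Con mice received vehicle. The skin of both groups was shaved, digested with collagenase D, rid of erythrocytes by lysis and cleared of debris on Percoll, and a sort or gate is not described for it. The group given TP with an antibody was not analysed here.

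With 1 library per group, replicate error could not be estimated and every difference below is a description of 2 libraries, without a test. The intervals in parentheses are exact 95% intervals for counting error alone, and variation between mice or dissociations lies outside them. The kept barcodes held 126023483 UMIs in Con and 156376139 in TP, at medians of 2162 and 5166 per barcode, while the endothelial members had medians of 3110 and 3355. The libraries shared 303 barcode sequences, of which 1 belonged to a Con member and 0 to a TP member. Only 1 Con barcode and 7 TP barcodes with at least 3 of the 7 genes were removed by the limits on genes and mitochondrial UMIs.

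Endothelial cells line every vessel of the skin. Those of blood capillaries carry nutrients to the hair follicle and take up fatty acids, those of venules display selectins that slow passing leukocytes, and those of lymphatic vessels return fluid and immune cells to the lymph nodes. All of them answer to vascular endothelial growth factors (VEGF), and the perifollicular vessels widen and shrink with the hair cycle. Lymphatic identity rests on the transcription factor PROX1 and the VEGF-C receptor encoded by Flt4, whereas Flt1 encodes a VEGF receptor of blood endothelium.

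The label was checked on genes the rule did not use. Levels are UMIs summed over the members of a library, per 1000000 UMIs of those members (CPM), and are compared between groups, not between genes. Of the 10 genes that stood highest over all other kept barcodes of both libraries, 4 were rule genes (Cdh5, Emcn, Ptprb and Cldn5), which the rule itself placed there. The other 6 were the adhesion receptor Adgrl4, the transcription factor Mecom, the butyrophilin-like Btnl9, the lymphatic chemokine Ccl21a, the lipase anchor Gpihbp1 and Ushbp1. Adgrl4 exceeded the other barcodes by 10.49 on the log2 scale in Con and 10.03 in TP, and Gpihbp1 by 9.47 and 9.97. All 24 further endothelial identity genes looked at, among them Tie1, Tek, Erg and Sox17, were detected in both libraries, at a summed level of 4091 CPM in Con and 4574 CPM in TP against 54.5 and 65.0 CPM in all other barcodes. The label therefore held for the genes measured. At the edge of the rule, the barcodes with exactly 3 of the 7 genes (23 in Con and 33 in TP) had a median of 4 identity genes in each library, and those with exactly 2, which were left out (25 and 58), had a median of 2.

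RNA of other cell types was also present. A member was called mixed when at least 3 genes of another cell type list were detected in it, or when keratins made up at least 2% of its UMIs, which held for 18 members in Con and 24 in TP. The 18 in Con were marked by pericyte and smooth muscle genes in 11 barcodes, fibroblast genes in 6, dermal papilla genes in 5, keratins in 2 and melanocyte genes in 1. The 24 in TP were marked by fibroblast genes in 14, pericyte and smooth muscle genes in 8, keratins in 7, leukocyte genes in 2 and dermal papilla genes in 1. A procedure modelled on DoubletFinder, which the study used, called 19 Con and 20 TP members among the 7.5% of barcodes nearest to artificial doublets. They were kept here, and counts of genes without them are given in the closing section.

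The members were divided into lymphatic-like cells and the remainder, called blood vessel-like. Lymphatic-like cells were defined by at least 2 of Prox1, Flt4, Pdpn, Mmrn1 and Reln with a UMI, a split that was chosen after the data had been seen and that left Lyve1 aside. By it 28 of the 91 Con members (30.8%, 21.5 to 41.3) and 91 of the 144 TP members (63.2%, 54.8 to 71.1) were lymphatic-like. Few members lay at the boundary, with exactly 1 of the 5 genes in 8 Con and 15 TP members and exactly 2 in 3 and 8. Among the leading genes of lymphatic-like cells were Mmrn1, Reln, Prox1 and Flt4, which defined them, and also Ccl21a, Lrg1 and Rasgrf2, and Rasgrf2 was among the 10 leading genes of both classes. Blood vessel-like cells were led by Adgrl4, Gpihbp1, Mecom and Cd93 beside the rule genes. No blood vessel gene was required of the remainder. A UMI of Plvap, Cd36, Gpihbp1, Cd93, Vwf, Fabp4 or Rgcc was present in 55 of 55 Con and 37 of 38 TP members with 0 of the 5 lymphatic genes and in 7 of 8 and 13 of 15 with 1. Such a UMI was also present in lymphatic-like members, in 2 of 3, 9 of 12, 7 of 9 and 4 of 4 Con members with 2, 3, 4 and 5 of the lymphatic genes and in 2 of 8, 8 of 22, 20 of 32 and 19 of 29 TP members, so its presence alone does not mark the remainder. Depth differed within the classes, at median UMIs of 3861 in Con and 2963 in TP for lymphatic-like and 2843 and 5823 for blood vessel-like cells, or 3510 and 2645 and 2748 and 3958 without mixed members. Counts of cells that hold a gene are not thinned unless stated, so this gap stands beside each of them.

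**Figure D1:**
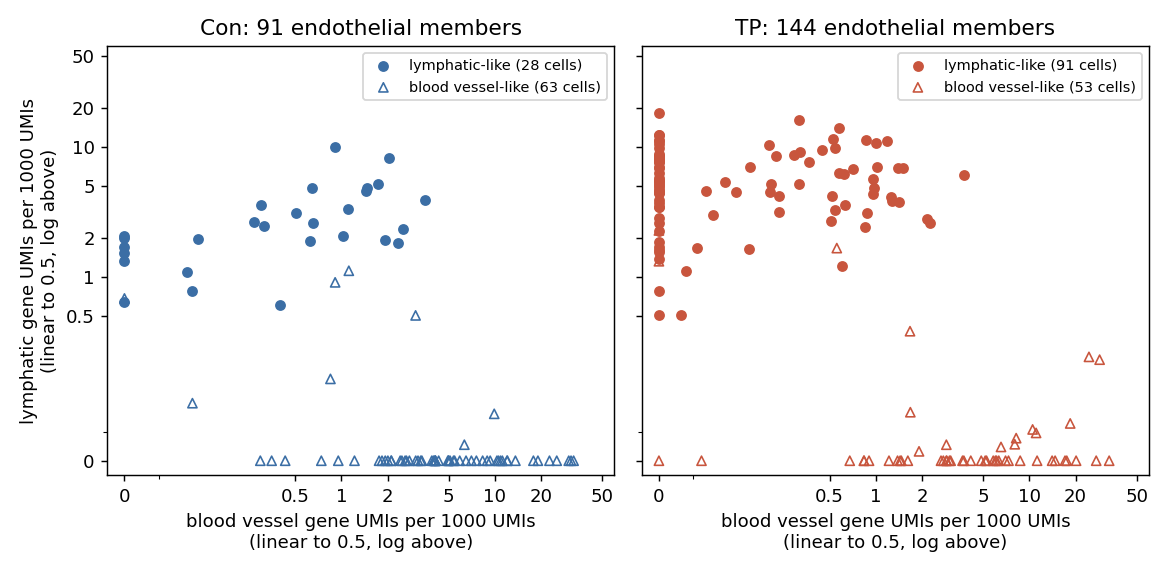
Each point is 1 endothelial member, placed by its UMIs of blood vessel genes (x axis) and of lymphatic genes (y axis) per 1000 of its UMIs, in Con (left, 91 cells) and TP (right, 144 cells), with both axes linear to 0.5 and logarithmic above. Filled circles are the 28 and 91 lymphatic-like cells and open triangles the 63 and 53 blood vessel-like cells, and their distance along the y axis was set by the split, which used lymphatic genes.

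Of the VEGF receptor genes, Flt1 and Flt4 were each found mainly in one class and Kdr in both, which is a description, since Flt1 and Kdr served the rule and Flt4 the split. Leaving out mixed members, which gives 26 Con and 79 TP lymphatic-like and 47 Con and 41 TP blood vessel-like cells, Flt1 was detected in 0 of 26 and 0 of 79 lymphatic-like cells but in 43 of 47 and 34 of 41 blood vessel-like cells. Kdr, the main signalling receptor for VEGF-A, was detected in both classes, in 21 of 26 and 63 of 79 lymphatic-like and in 31 of 47 and 28 of 41 blood vessel-like cells. Flt4 was found in 11 of 26 and 55 of 79 lymphatic-like cells against 2 of 47 and 5 of 41. The 250 bases before 1 annotated transcript start of each gene are shown because Flt1 and Flt4 were found mainly in one class each and Kdr in both, from RefSeq on build GRCm38.p6, 5′ to 3′ along the gene's strand, with the letters AGGAAG, which hold a core bound by ETS factors, in capitals. A match on the other strand would read CTTCCT. The Flt1 and Kdr windows lie inside the outermost annotated span of these genes, which begins further upstream (at base 147726438 for Flt1 and 75979072 for Kdr on chromosome 5), and the Flt4 window ends where its span begins.
Flt1, minus strand, chr5:147726012-147726261: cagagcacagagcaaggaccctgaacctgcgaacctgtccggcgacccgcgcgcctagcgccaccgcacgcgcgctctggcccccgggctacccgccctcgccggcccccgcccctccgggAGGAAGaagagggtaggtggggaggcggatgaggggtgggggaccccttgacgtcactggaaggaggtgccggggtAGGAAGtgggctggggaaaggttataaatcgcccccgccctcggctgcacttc
Kdr, minus strand, chr5:75978456-75978705: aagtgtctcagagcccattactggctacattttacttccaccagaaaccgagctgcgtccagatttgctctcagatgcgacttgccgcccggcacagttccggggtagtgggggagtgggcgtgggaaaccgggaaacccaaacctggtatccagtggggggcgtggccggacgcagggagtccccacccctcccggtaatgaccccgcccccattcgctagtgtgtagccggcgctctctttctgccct
Flt4, plus strand, chr11:49609429-49609678: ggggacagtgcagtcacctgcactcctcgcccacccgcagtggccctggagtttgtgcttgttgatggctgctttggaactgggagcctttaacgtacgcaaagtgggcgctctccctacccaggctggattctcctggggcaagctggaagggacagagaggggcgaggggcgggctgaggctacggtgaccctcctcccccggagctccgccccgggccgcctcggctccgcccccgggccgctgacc
The 6 letters occur 2 times in the window of Flt1 and 0 times in those of Kdr and Flt4, and 29.5% of the 32851 windows of this length in the same table hold them on either strand. The windows are rich in G and C, at 70.4% for Flt1, 61.6% for Kdr and 68.4% for Flt4 against a median of 52.4% over all windows. A match of letters is a description and not a binding site, and no match says only that these letters are not in the window. The shorter run GGAA inside these letters was not marked by itself, and the windows of Kdr and Flt4 hold it too.

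Endothelial cells made up a larger share of the TP library, and most of the difference was in lymphatic-like cells. The members were 0.215% (0.173 to 0.264) of the kept barcodes in Con and 0.718% (0.606 to 0.845) in TP, a ratio of 3.33 (2.55 to 4.38). Lymphatic-like cells were 0.0663% (0.0440 to 0.0958) and 0.454% (0.366 to 0.557), a ratio of 6.85 (4.44 to 10.9), while blood vessel-like cells were 0.149% (0.115 to 0.191) and 0.264% (0.198 to 0.346), a ratio of 1.77 (1.21 to 2.60). The intervals of the 2 ratios do not overlap. Because the rule needs detected genes, it was repeated after every barcode was thinned at random to 1000 UMIs and shallower barcodes were left out, which gave 37 members of 36882 (0.1003%) in Con and 72 of 19154 (0.376%) in TP, a ratio of 3.75. After thinning 5 of the 37 and 31 of the 72 were lymphatic-like, so the ratio for that class, 11.9, rests on 5 Con cells. Thinning evens out depth but not the marker RNA per cell that the rule and the split need. Of the rule genes in unmixed lymphatic-like cells, Pecam1 and Cldn5 were each 1.65-fold higher in TP and Emcn 1.27-fold. Cdh5, Ptprb and Kdr had ratios from 0.825 to 0.990. The 5 genes of the split were all higher in TP in these cells, from 1.35-fold for Prox1 to 3.23-fold for Flt4. Changes in the number of endothelial cells, their marker RNA, what the digestion released and the number of other cells recovered cannot be told apart with shares of 1 library each.

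**Figure D2:**
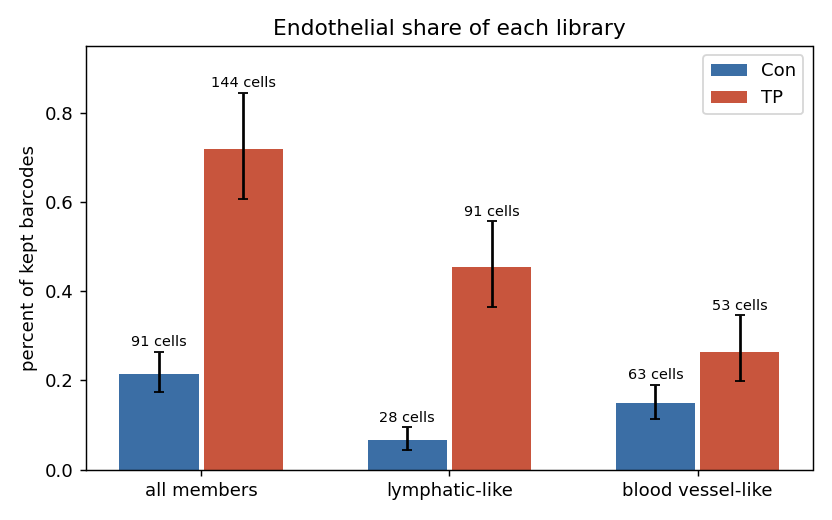
Bars give the percent of kept barcodes (y axis) that were endothelial members, lymphatic-like or blood vessel-like cells in Con and TP, with exact Clopper-Pearson 95% intervals and the number of cells above each bar. Lymphatic-like cells stand at 0.0663% in Con and 0.454% in TP, without overlap of the intervals, and blood vessel-like cells at 0.149% and 0.264%.

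Gene levels were then compared within each class, without mixed members. A gene was counted as different at a ratio of at least 2-fold, with 1 UMI added to each library before scaling, and a gene needed 50 UMIs over the 2 libraries to be considered. In lymphatic-like cells 176 of 1600 genes (11%) passed, 121 (7.56%) higher in TP and 55 (3.44%) lower, and over the same genes the other kept barcodes gave 7.5% and 3%. In blood vessel-like cells 100 of 1852 (5.4%) passed, 60 (3.24%) higher and 40 (2.16%) lower, against 5.4% and 3.56% in the other barcodes. Without the deepest 5% of members 117 were higher and 78 lower of 1412 in blood vessel-like cells, so the share called in this class depends on those members, and the classes were not compared by it. The median log2 ratio over all genes considered was 0.03 in each class. The balance of directions depended on the scaling, since with TMM factors, which move these medians to 0.22 and 0.16, the lymphatic-like cells had 183 genes higher and 35 lower (83.9% higher, against 68.8% with library totals) and the blood vessel-like cells 93 and 28 (76.9%, against 60%). Median-of-ratios factors gave 84.2% and 73.5%.

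Of the genes considered in lymphatic-like cells, Lyve1, which encodes a hyaluronan receptor of initial lymphatic capillaries, differed most. It had 0 UMIs in the 26 Con cells and 294 UMIs in 30 of the 79 TP cells, at most 51 of them in 1 cell, which is 1044 CPM (928 to 1170) and at least 35.4-fold higher than the level that 3 UMIs in Con would give. Lyve1 is also made by some macrophages, and the 7 leukocyte genes together had 1 UMI in these Con cells and 15 UMIs in these TP cells. Members with at least 3 of these 7 genes had been left out as mixed, which keeps this sum low. Over all members it was 1 UMI in Con and 73 UMIs in TP, and the part of macrophage RNA in Lyve1 was not tested. Mixed members included, it was at 0 UMIs in all 91 Con members and at 322 UMIs in 37 of the 144 TP members. After thinning to 1000 UMIs, 26 of 78 TP cells (33.3%, 23.1 to 44.9) held a Lyve1 UMI against 0 of 25 Con cells, which allows a share of cells with a UMI of up to 12% by the floor of 3 counts and of up to 13.7% by the exact interval, and does not limit the share of cells that express the gene. Keratin-rich barcodes, other kept barcodes with at least 2% of their UMIs from keratins and medians of 4090 UMIs in Con and 8483 in TP, should lack the gene and held it in 3 of 6666 in TP and 1 of 3269 in Con after thinning, at unthinned shares of 21 of 6863 and 3 of 3444. Blood vessel-like cells held it in 0 of 39 and 0 of 45. In all other kept barcodes together Lyve1 was also higher in TP, at 0.478 CPM in Con and 4.80 CPM in TP, a log2 ratio of 3.31. The gene lies on chromosome 7 from 110850607 to 110862953 of GRCm38.p6.

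Several other genes were detected in the same TP cells as Lyve1. The mechanically gated channel gene Piezo2 had 0 UMIs in the 26 Con lymphatic-like cells and 102 UMIs in 26 TP cells, 24 of which also held Lyve1, although the 30 cells with Lyve1 were fewer than the 49 without. Fndc1 had 0 UMIs in Con and 91 UMIs in 28 TP cells, 22 of them with Lyve1. The protease inhibitor gene Serpina3n had 1 UMI in Con and 75 UMIs in 26 TP cells, 18 of them with Lyve1. In all other kept barcodes Serpina3n was higher in TP as well, at 0.541 and 8.84 CPM. Its log2 ratio was 4.01 there and 3.78 in lymphatic-like cells. In the same other barcodes the log2 ratio was -1.27 for Piezo2 and 1.55 for Fndc1. Median depth was 2986 UMIs in TP lymphatic-like cells with Lyve1 and 2524 in those without. The counts of cells that hold a gene together with Lyve1 were not thinned, and the part of depth in them was not tested. Piezo2 was also detected in blood vessel-like cells, in 10 of 47 in Con and 9 of 41 in TP, so it was not at 0 in the Con members as a whole.

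**Figure D3:**
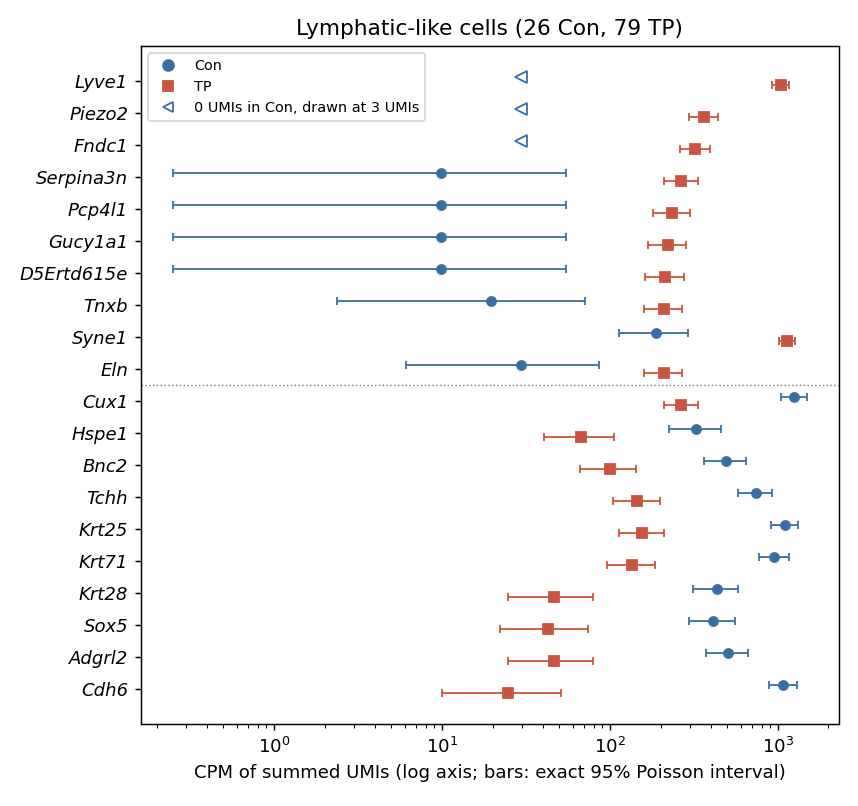
Levels in lymphatic-like cells (26 Con, 79 TP, without mixed members) of the 10 genes with the largest differences in each direction, as CPM of summed UMIs on a log axis with exact Poisson 95% intervals. Lyve1, Piezo2 and Fndc1, at 0 UMIs in Con, are drawn there at the level of 3 UMIs. The genes above the dotted line were higher in TP and those below it lower, and all were picked for the size of their difference.

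The remaining genes of the 10 with the largest positive differences were seen across many TP cells. They were Pcp4l1 (9.83 against 234 CPM, in 30 TP cells), the soluble guanylate cyclase subunit gene Gucy1a1 (9.83 against 220 CPM, 24 cells), D5Ertd615e (9.83 against 213 CPM, 29 cells), the matrix genes Tnxb (19.7 against 209 CPM, 35 cells) and Eln (29.5 against 209 CPM, 32 cells), and Syne1. Syne1, which encodes a protein of the nuclear envelope, was at 187 CPM (112 to 292) in Con and 1139 CPM (1018 to 1271) in TP, 6.10-fold higher (3.84 to 10.3). After thinning 8% of Con and 44.9% of TP lymphatic-like cells held a Syne1 UMI, against 7.46% and 5.97% of keratin-rich barcodes. In blood vessel-like cells 9 of 45 and 16 of 39 held it after thinning. Counts of 1 to 3 UMIs in Con make these ratios imprecise, with an interval of 4.13 to 955 for Pcp4l1.

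Of the 6 genes of the lymphatic list, 3 were at least 2-fold higher, Lyve1, Flt4 and Reln, and 0 were lower. Over all genes considered in this class 7.56% were called higher and 3.44% lower. Prox1, Pdpn and Mmrn1 did not pass. The median log2 ratio of the list was 1.17, which is the same with Lyve1 at its bound. The 5 split genes defined the class, so their levels in it are a description. Reln, which encodes a secreted glycoprotein, was at 904 CPM in Con and 2307 CPM in TP, 2.55-fold higher (2.05 to 3.21), and Flt4 at 147 and 476 CPM, 3.23-fold higher (1.89 to 5.92). Prox1 was at 649 and 877 CPM, 1.35-fold higher (1.03 to 1.80), and Mmrn1 at 1022 and 2052 CPM, 2.01-fold higher (1.63 to 2.50), below the limit once a UMI was added. Ccl21a, a chemokine that draws dendritic cells into lymphatic vessels and that no rule used, was at 4453 CPM in Con and 14416 CPM in TP, 3.24-fold higher (2.94 to 3.58). All Ccl21 UMIs were assigned to 1 of the 6 near-identical Ccl21a, Ccl21b and Ccl21c rows, so the copy they came from is uncertain. In all other kept barcodes Ccl21a was 4.93-fold higher in TP, at 1.31 and 6.47 CPM.

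Other listed genes of lymphatic-like cells are given here by value, from several lists with few genes considered, beside 7.56% of all genes called higher and 3.44% lower. Of 3 venous genes Nr2f2 was called higher, of 8 flow and vasoactive genes Klf4, and of 3 lipid uptake genes Pparg was higher and Fabp5 lower. Of 6 TGF-β and BMP genes Id3 was lower, at 324 and 156 CPM, a ratio of 0.481 (0.300 to 0.781), and of 2 Notch genes 0 were called. Of 3 arterial genes Fbln5 and Stmn2 were higher, at 2.42-fold (1.24 to 5.27) and 2.59-fold (1.37 to 5.41), and of 7 basement membrane and matrix genes Col4a1 and Lamc1 were higher and Sparc lower. Nr2f2, a factor of venous and lymphatic fate, was at 177 and 557 CPM, 3.15-fold higher in TP (1.93 to 5.45), in 8 of 26 and 56 of 79 cells. Ackr3, which encodes a scavenging receptor for CXCL12 and adrenomedullin, was at 167 and 589 CPM, 3.53-fold higher, while 1 Con cell held 13 of its 17 Con UMIs. Adm itself was at 246 and 217 CPM, and the receptor parts Calcrl and Ramp2 had ratios of 1.72 (1.14 to 2.66) and 1.55 (1.08 to 2.28) and did not pass. Klf4, induced by flow, was 2.38-fold higher (1.71 to 3.39), and Pparg, a regulator of lipid metabolism, 3.83-fold (1.54 to 12.3). Igfbp5 was at 433 and 1654 CPM, 3.82-fold higher (2.80 to 5.34), and was held by 20% of Con and 55.1% of TP cells after thinning, against 1.87% and 0.690% of keratin-rich barcodes. Igfbp5 was named after its values were seen.

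Several genes at lower levels in TP lymphatic-like cells were ones that keratin-rich barcodes also held. The cadherin gene Cdh6 was at 1071 CPM in Con and 24.8 CPM in TP, a ratio of 0.0232 (0.00911 to 0.0494), with 41 of its 109 Con UMIs in 1 cell. After thinning it was found in 16% and 1.28% of lymphatic-like cells and in 12.6% and 2.85% of keratin-rich barcodes. The inner root sheath genes Krt25, Krt28, Krt71 and Tchh, which endothelial cells do not make, were 4 of the 10 largest negative differences, with ratios from 0.107 to 0.197. Krt71 was held by 44% of Con and 20.5% of TP lymphatic-like cells after thinning, against 43.1% and 11.1% of keratin-rich barcodes. Fabp5, a fatty acid binding protein gene, was at 1052 and 256 CPM, a ratio of 0.243 (0.178 to 0.331), and was held by 64% and 24.4% of cells against 63.8% and 50.9% of keratin-rich barcodes, which hold much of this RNA themselves (3260 of 3444 in Con before thinning). The opposite held for epidermal keratins, with Krt10 at 403 and 1441 CPM in the same cells. The remaining 5 genes were Adgrl2, Sox5, Bnc2, Cux1 and the chaperonin gene Hspe1, with ratios from 0.0921 to 0.213, and the part of RNA from other cells in them was not tested.

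In blood vessel-like cells several of the largest differences rested on few cells. The 5 largest among genes higher in TP were Prr9, Serpinh1, Lepr, Tacr1 and Nos1ap. Prr9 had 66 UMIs in 3 TP cells, 35 of them in 1 cell, and without called doublets, or without the deepest 5% of members, at most 3 UMIs were left in each library, so it rests on those cells. Serpinh1, a collagen chaperone gene, had 97 UMIs in 22 TP cells, 39 of them in 1 cell. Lepr, the leptin receptor gene, was at 56.3 CPM in Con and 336 CPM in TP, 5.97-fold higher (2.91 to 14.2), in 6 of 47 and 12 of 41 cells, and Tacr1, which encodes the receptor for substance P, at 120 and 633 CPM, 5.29-fold higher (3.21 to 9.29), in 8 and 10 cells with 56 of 177 TP UMIs in 1 cell. Nos1ap was at 49.3 and 243 CPM in 6 and 21 cells. Prnp, Casp4, Fkbp5, Cadm1 and Pfn1 followed, with ratios from 3.40 to 4.06.

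Prkch, which encodes a protein kinase C, was at 430 CPM (329 to 552) in Con and 1281 CPM (1151 to 1420) in TP, 2.98-fold higher (2.27 to 3.98). It was detected in 29 of 47 and 32 of 41 cells with 63 of 358 TP UMIs in 1 cell, and after thinning in 35.6% and 74.4% against 14.5% and 11.1% of keratin-rich barcodes. Vim, encoding the filament protein vimentin, was at 929 and 2686 CPM, 2.89-fold higher (2.40 to 3.50), with 247 of 751 TP UMIs in 1 cell, and was held by 44.4% and 64.1% of the cells after thinning. The transporter genes Abcb1a, Abcg2 and Slco2a1 were 2.82-fold (1.47 to 5.94), 2.60-fold (1.67 to 4.22) and 2.54-fold higher. Ednrb, an endothelin receptor gene, was 2.95-fold higher (1.49 to 6.47), and Tgfbr3, a co-receptor for TGF-β, 2.34-fold (1.55 to 3.66). Esm1, a marker of tip cells, passed the limit at 77.5 and 168 CPM, 2.17-fold higher (1.11 to 4.64), in 7 and 8 cells with 21 of 47 TP UMIs in 1 cell. Ednrb was the only gene called of 7 flow and vasoactive genes, Tgfbr3 of 7 TGF-β and BMP genes and Esm1 of 2 tip and growth genes. Mmrn2 was the only gene called of 15 endothelial identity and of 12 basement membrane and matrix genes. In this class 3.24% of all genes were called higher, and 1 gene called is no result about its list. Prkch, Vim and the 3 transporters were named after their values were seen.

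**Figure D4:**
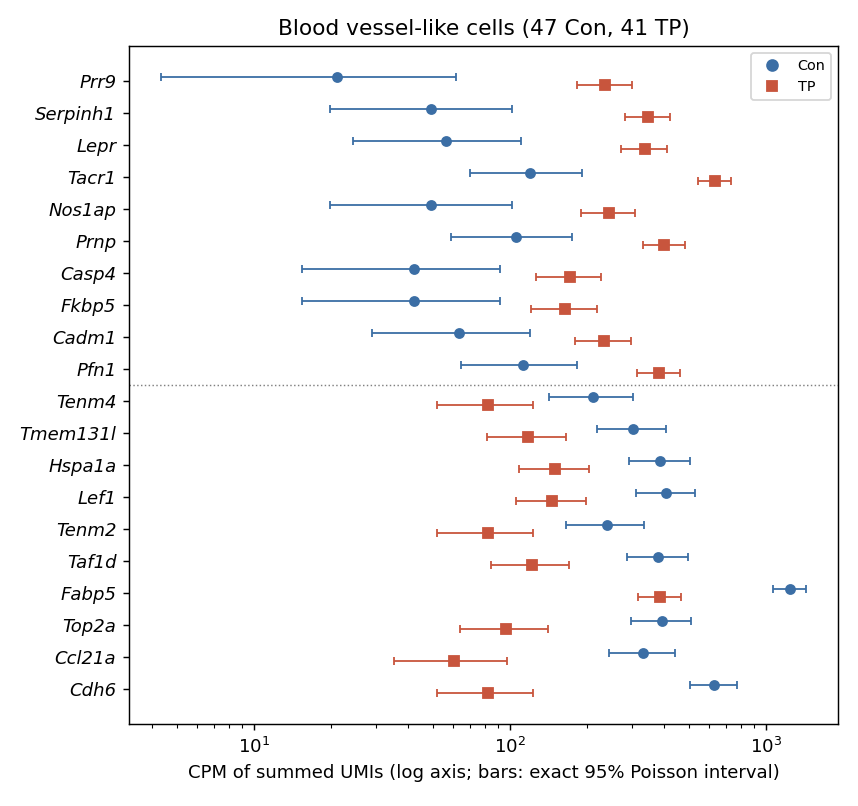
Levels in blood vessel-like cells (47 Con, 41 TP, without mixed members) of the 10 genes with the largest differences in each direction, as CPM of summed UMIs on a log axis with exact Poisson 95% intervals. The genes above the dotted line were higher in TP and those below it lower, from Prr9 at 21.1 and 236 CPM to Cdh6 at 627 and 82.3 CPM.

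Of the 3 cell cycle genes considered in blood vessel-like cells, Top2a and Mki67 were called lower, against 2.16% of all genes considered in this class. Cenpf, at a ratio of 0.664 (0.387 to 1.15), was not called. The list median was -1.17, against -1.03 in all other barcodes. Top2a was at 394 and 96.6 CPM, a ratio of 0.245 (0.149 to 0.394), in 20 of 47 and 5 of 41 cells, and Mki67 at 394 and 175 CPM, a ratio of 0.445 (0.297 to 0.664), in 22 and 7 cells. After thinning Mki67 was held by 31.1% and 7.69% of the cells, against 16.2% and 6.26% of keratin-rich barcodes, and Top2a by 17.8% and 2.56% against 13.1% and 7.16%. Keratin-rich barcodes do not lack these genes, since before thinning 1510 of 3444 in Con held Mki67 and 1293 held Top2a. Cdh6 was at 627 and 82.3 CPM and Fabp5 at 1239 and 386 CPM, ratios of 0.131 (0.0792 to 0.210) and 0.312 (0.243 to 0.398). After thinning Cdh6 was held by 20% of the cells in Con and 0 of 39 in TP, against 12.6% and 2.85% of keratin-rich barcodes, and Fabp5 by 71.1% and 25.6% against 63.8% and 50.9%, and the part of RNA from other cells was not tested. Lef1, Taf1d, Tenm2, Tenm4, Tmem131l and the heat shock gene Hspa1a had ratios from 0.320 to 0.390. Ccl21a, at 331 and 60.8 CPM, rested on 2 Con and 3 TP cells, with 33 of the 47 Con UMIs in 1 cell, and its log2 ratio of -2.39 turned to 2.94 with at least 4 rule genes and 0.70 after thinning.

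Genes of capillary, arterial and venous identity were few among those considered in blood vessel-like cells. Of the 5 capillary genes 0 passed 2-fold in either direction, which with 5.4% of all genes passing is no result about them, and the median log2 ratio was -0.20. The fatty acid translocase gene Cd36 was at 2134 and 1599 CPM, a ratio of 0.749 (0.646 to 0.870), and Fabp4 at 4457 and 3084 CPM, a ratio of 0.692 (0.624 to 0.768). Cd36 was held by 36 of 47 and 23 of 41 cells. The same holds for the 4 arterial and 3 venous genes, of which 0 passed, with Efnb2 at a ratio of 0.563 (0.352 to 0.903) and Aqp1 at 0.693 (0.509 to 0.949). The leukocyte adhesion genes Selp and Sele, P- and E-selectin, had few UMIs, 18 and 6 for Selp and 3 and 1 for Sele, in at most 4 cells of a library. Over all members, mixed ones included, Selp was at 179 and 35.8 CPM, a ratio of 0.200 (0.128 to 0.308), in 10 of 91 and 8 of 144 cells.

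The study asked about CXCL12, a chemokine that recruits cells through CXCR4, and its genes were followed in the endothelial members. Cxcl12, on chromosome 6 from 117168535 to 117181368, was found more often in blood vessel-like cells, in 28 of 47 Con and 25 of 41 TP cells against 1 of 26 and 8 of 79 lymphatic-like cells. Within blood vessel-like cells its Con level was 1626 CPM (1424 to 1850) and its TP level 1227 CPM (1100 to 1364), which gives a ratio of 0.754 (0.637 to 0.895), and 60 of 231 Con and 74 of 343 TP UMIs lay in 1 cell each. After thinning 53.3% (37.9 to 68.3) and 35.9% (21.2 to 52.8) of these cells held it, with overlapping intervals, against 0.184% and 0.195% of keratin-rich barcodes. Over all members Cxcl12 was at 712 and 453 CPM, a ratio of 0.636 (0.544 to 0.743), whereas in all other kept barcodes its log2 ratio was 1.19. The value over all members pools both classes, whose shares differ between the libraries, and the part of the class shares in it was not tested. Cxcr4 had 2 UMIs in 1 Con member and 10 UMIs in 5 TP members, a ratio of 2.19 (0.467 to 20.5). Ackr3 was at 74.0 and 244 CPM over all members, 3.29-fold higher (2.23 to 5.03), and at 70.4 and 42.9 CPM in blood vessel-like cells, so the higher level was found in lymphatic-like cells.

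Over all 235 members, 282 of 5169 genes considered (5.46%) passed 2-fold, 135 (2.61%) higher in TP and 147 (2.84%) lower, against 5.57% and 2.86% for the same genes in the other barcodes. The median log2 ratio was -0.06. With TMM factors, which move that median to 0.07, 199 were higher and 99 lower (66.8% higher, against 47.9%), and median-of-ratios factors gave 69.6%. Class shares and mixed members differ between the libraries, and several of the largest differences involve genes of one or the other. Lyve1, Fndc1 and Serpina3n were also among the largest in lymphatic-like cells. The collagen genes Col1a1 and Col1a2 had 1066 and 1623 UMIs in TP members against 19 and 35 in Con, but 1031 and 1571 of the TP UMIs came from a single mixed member of 24538 UMIs, which also held 788 of 843 Col3a1 and 349 of 375 Dcn UMIs. Without mixed members Dcn was lower in TP, with a log2 ratio of -1.30 against 2.90. Of the chemokine gene Ccl8, 102 of 186 TP UMIs lay in 1 cell, of Igfbp6 54 of 62 and of Mrc1 24 of 60, and D5Ertd615e was spread over 39 TP members. Without lymphatic-like members at most 3 UMIs each of Ccl8, Mrc1 and D5Ertd615e were left in each library. Among the largest negative differences, Acta2 is made by mural cells, and Corin and Rspo3 are known from the dermal papilla. Of Wif1 52 of 63 Con UMIs lay in 1 cell, of Dcc 41 of 84, of Corin 30 of 53, of Rspo3 22 of 41, of Crabp1 23 of 51 and of Csmd1 90 of 256. Cdh6, Sostdc1 and Nxpe4 completed the 10, at ratios from 0.0632 to 0.103.

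The gene lists over all members were read against 5.46% of all genes called in either direction, and lists with 0 or 1 gene called lie near that share and are no result about the list. All 6 lymphatic genes were at least 2-fold higher, at a summed level of 812 and 2682 CPM. The split used 5 of these genes, and lymphatic-like cells were 30.8% of Con and 63.2% of TP members. This count is therefore a description that moves with the class share, and within the class 3 of the 6 passed. Of 23 endothelial identity genes tested 0 passed in either direction (median log2 ratio 0.24), and the same held for the 6 capillary genes (-0.08). Of 7 venous genes Nr2f2 was higher and Selp and Aqp1 lower, in values that pool both classes, whose shares differ. In blood vessel-like cells 0 of 3 venous genes passed, and in lymphatic-like cells only Nr2f2 of 3. In lymphatic-like cells Aqp1, below 50 UMIs, had 0 UMIs in Con and 32 UMIs in 9 TP cells. Of 7 arterial genes Dll4, a Notch ligand, was higher at 20.4 and 50.3 CPM. Among 10 VEGF and angiopoietin genes only Flt4 passed, and Tek, Tie1 and Ptprb had log2 ratios from -0.23 to 0.29. Of 15 basement membrane and matrix genes tested only Fn1 was called, at 2.06-fold (1.35 to 3.25), of 12 TGF-β and BMP genes only Tgfb2, at 2.39-fold (1.24 to 5.04), and of 14 flow and vasoactive genes only Ednrb, at 2.13-fold (1.52 to 3.04). Of 13 angiocrine ligand genes Hgf was higher and Rspo3 lower. Rspo3 is the gene named above as known from the dermal papilla, with 22 of 41 Con UMIs in 1 cell. In blood vessel-like cells 0 of 5 angiocrine ligand genes were called. Of 4 cell cycle genes 3 were lower, Mki67, Top2a and Cenpf, with a list median of -1.42 against -1.01 in all other barcodes. Fabp5 was the only lipid uptake gene called among 8. Cldn5 and Edn1, each with a log2 ratio of 0.99, lay just under the limit, and Fn1, at 1.00, just over it.

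**Figure D5:**
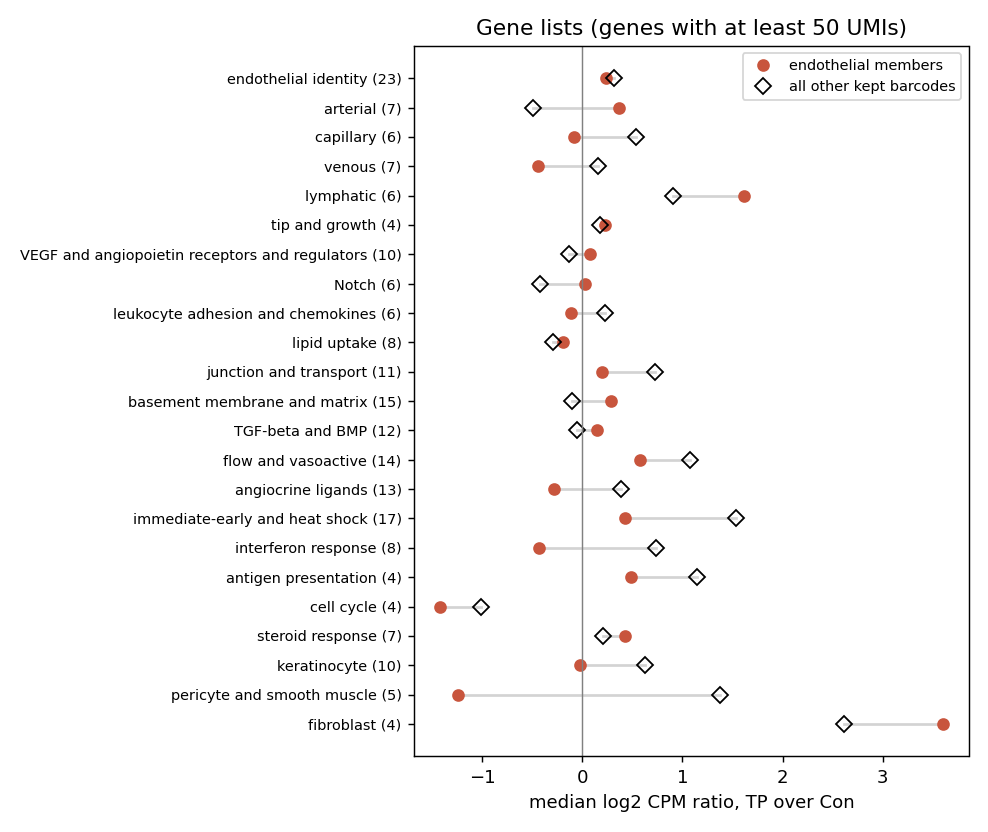
Median log2 CPM ratio of TP over Con (x axis) for the genes of each list with at least 50 UMIs in the members, their number in parentheses, in endothelial members (filled circles) and over the same genes in all other kept barcodes (open diamonds). Immediate-early and heat shock genes stand at 0.43 in members and 1.53 in other barcodes, and lymphatic genes at 1.61 and 0.91.

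Stress and immune lists are given with their medians in the members and in the rest of the skin, and their counts can be set against 5.46% of all genes called in either direction in members, 11% in lymphatic-like and 5.4% in blood vessel-like cells. Of 17 immediate-early and heat shock genes only Fosb was at least 2-fold higher, at 204 and 479 CPM, with a list median of 0.43 in members and 1.53 in all other kept barcodes over the same genes. Atf3, a stress-induced factor, was at 666 and 699 CPM in members, a log2 ratio of 0.07, against 2.00 in the other barcodes. In the classes the medians were 0.60 in lymphatic-like cells, with Fos, Fosb, Jund, Zfp36 and Dusp1 called higher of 16 tested, and 0.03 in blood vessel-like cells, with Hspa1a called lower of 15. Of 8 interferon response genes Bst2 was lower and 0 were higher, with a median of -0.43 against 0.74 elsewhere, and Isg15 was at 362 and 209 CPM. In lymphatic-like cells Isg15, at 0.461 of the Con level (0.356 to 0.597), and Bst2, at 0.301 (0.170 to 0.529), were called lower among 7 considered, with a median of -0.73 against 0.86 elsewhere, and in blood vessel-like cells 0 of 3 passed, with a median of 0.07. This difference between the classes was not tested. Of 4 antigen presentation genes 0 passed (0.49 against 1.15), and 0 of 4 is no result about a list at that share. The differences between members and other barcodes were not tested, since each comparison has 1 library per group.

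Of 7 steroid response genes considered in the members 2 passed 2-fold, both higher in TP, against 2.61% of all genes considered. This count pools both classes, whose shares differ. Of 3 considered in each class, Zbtb16 was the only gene called in lymphatic-like cells and Fkbp5 the only gene in blood vessel-like cells. In these classes 7.56% and 3.24% of all genes were called higher. Fkbp5, which encodes a co-chaperone of steroid receptors, was at 38.3 CPM in Con and 151 CPM in TP, 3.94-fold higher (2.31 to 7.24), and Zbtb16 at 40.8 and 183 CPM, 4.49-fold higher (2.68 to 8.04). Fkbp5 was detected in 15 of 91 and 60 of 144 members, and after thinning in 5.68% and 15.6% against 1.32% and 3.18% of keratin-rich barcodes. Zbtb16 was detected in 12 and 71 members, and after thinning in 2.27% and 17.7% against 5.69% and 11.5% of keratin-rich barcodes. Keratin-rich barcodes do not lack Zbtb16, which before thinning was held by 731 of 3444 in Con and 3367 of 6863 in TP. In all other kept barcodes the log2 ratios were 0.74 for Fkbp5 and 2.11 for Zbtb16. Tsc22d3, Sgk1, Nr3c1 and Nr3c2 had log2 ratios from -0.01 to 0.47 and did not pass.

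Markers of other cell types moved with the groups in the members. Over all members the 9 pericyte and smooth muscle genes summed to 812 CPM in Con and 273 CPM in TP, the 7 fibroblast genes to 337 and 4419 CPM, the 6 dermal papilla genes to 538 and 97.2 CPM, the 7 leukocyte genes to 2.55 and 81.6 CPM (1 and 73 UMIs), and the 10 keratin genes to 6058 and 7520 CPM. Without mixed members the fibroblast genes were at 78.6 and 177 CPM in lymphatic-like and 155 and 140 CPM in blood vessel-like cells, the keratins at 3205 and 3266 and at 4281 and 4103 CPM, and the mural genes at 68.8 and 46.1 and at 303 and 136 CPM. The leukocyte genes summed to 9.83 and 53.2 CPM in lymphatic-like cells and 0 and 7.15 CPM in blood vessel-like cells, with 6 and 4 and then 7 and 6 genes at 0. Krt10 was held by 40% of Con and 78.2% of TP lymphatic-like cells and by 46.7% and 74.4% of blood vessel-like cells after thinning. The part of this RNA in the differences above was not tested.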

How the data were processed

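Single-cell 3′ gene expression libraries of the Con and TP groups were analysed. The authors ran Cell Ranger 8.0.1 on the mm10-2020-A reference and deposited counts of UMIs per gene and called barcode, whole numbers without normalization; how the reads were assigned between near-identical genes is not given in the sources used here. The study's limits on genes and mitochondrial UMIs were applied here.

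UMIs were summed over members and divided by their total (CPM), and a ratio was called at 2-fold with 1 UMI added to each library, among genes with at least 50 UMIs. The genes named are the rule genes, the fixed lists, the 10 largest differences in each direction (without mitochondrial genes and gene models that have no symbol) and the 10 leading genes. Members and lists were chosen with earlier results of these data known, and the classes after their values were seen. Python 3.11.15, numpy 2.4.6, scipy 1.17.1 and pandas 2.3.3 were used, with scikit-learn 1.9.0 for artificial doublets (30 components), edgeR 4.0.16 and DESeq2 1.42.0 for scaling factors only. The ratio code was tested on simulated data. All 321 genes matched RefSeq (GRCm38.p6) by symbol.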

Additional observations from a re-analysis of the deposited data

Results flagged for a closer look

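In 4 genes of mural cells, which wrap vessels, the members and all other kept barcodes differed at least 2-fold in opposite directions, and this difference was not tested. The log2 ratio of TP over Con was -3.11 in members and 1.13 in all other barcodes for Acta2, -1.98 and 1.53 for Myh11, -1.13 and 1.99 for Rgs5, and -1.24 and 1.37 for Tagln. Mixed members with pericyte and smooth muscle genes numbered 11 of 91 in Con and 8 of 144 in TP.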

How the results depend on the processing

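No paired analysis was possible because each group has 1 library, and for the same reason no replicate could be left out. The share ratio of all members ranged from 3.33 to 3.75 over the alternatives and that of blood vessel-like cells from 1.60 to 2.47. That of lymphatic-like cells was 11.9 after thinning and 5.97 to 8.24 otherwise. Counts of genes called, higher then lower in TP, are given in order.

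Over all members they were 27 and 13 after thinning, 70 and 68 without lymphatic-like cells, 211 and 92 with median-of-ratios factors, 283 and 389 with the mean over cells of each cell's CPM, 36 and 19 at 200 UMIs, and 795 and 1235 with no minimum, where a gene with at most 3 UMIs in each library is listed but cannot be called. With counts per 10000 UMIs plus 0.1 on the log2 scale, 94 were lower. In lymphatic-like cells, alternatives that were all chosen after seeing the data gave 34 lower with 4 rule genes, 6 and 11 after thinning, 183 and 35 with TMM, 186 and 35 with median-of-ratios factors, 19 and 2 at 200 UMIs, and 798 and 1274 with no minimum. In blood vessel-like cells they were 7 and 4 after thinning, 117 and 78 without the deepest 5% of members, 127 and 134 with the mean over cells, 6 and 2 at 200 UMIs, and 755 and 1045 with no minimum, while 68 were lower with mixed members kept and 93 higher with TMM. With called doublets removed they were 184 and 141 over all members (56.6% higher, against 47.9%), 106 and 43 in lymphatic-like and 84 and 39 in blood vessel-like cells. Fewer UMIs leave fewer genes to test after thinning and at 200 UMIs. The causes of the other differences were not tested.

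Of 747 values of single genes, 727 kept the sign of the value in the report, 139 moved beyond its counting interval without a called reversal and 602 stayed within it. Of the shares and counts of genes 61 stayed within the limits set and 37 moved. Values of genes with at most 3 UMIs in each library under an alternative are not given. The reversals of called values were Dcn, at -1.30 without mixed members and -0.95 without the deepest members, Col1a2, at -0.10 without the deepest members, Fndc1, at -0.038 without lymphatic-like cells, and Ccl21a in blood vessel-like cells, at 2.94 with 4 rule genes and 0.70 after thinning.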
